A study of Rattus norvegicus with 26 samples.

Results

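The genes of the proteasome were described in rat hearts of 2 strains at 2 stages. All genes were taken whose symbol in the annotation of the array is Psma, Psmb, Psmc, Psmd, Psme, Psmf or Psmg followed by a number, without Psmb8 and Psmb9, and each gene was represented by its probe with the highest mean over the arrays. This gave 40 of the 13337 named genes, and of these genes 39 had 1 probe and Psmb10 had 2. Psmd14, Psmd10, Psme3, Psmf1, Psmg3 and Psmg4 were not analysed here. The study compared the stroke-prone spontaneously hypertensive rat (SHRSP), an inbred strain with hypertension and a thickened left ventricle, with F344, an inbred strain of normal blood pressure, to look for fetal expression programs in the hypertrophied heart. RNA of individual male rats was hybridized to RatRef-12 BeadChips of Illumina, which carry 22523 probes and use 1 colour, and the authors' log2 intensities, quantile-normalized over the arrays, were used. F344 had 7 arrays from day 20 of fetal development (E20) and 8 from 14 weeks of age (week 14), and SHRSP had 4 and 7, all from untreated colony animals as far as the labels tell, and the adult rats and the dams had a normal-salt diet. The strains differ in their whole genetic background as well as in blood pressure, and these cannot be told apart here. Whether fetuses shared a dam is not given in the sources used here, so p-values measure the spread between these arrays.

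The proteasome is the protease that degrades proteins tagged with ubiquitin. Its 20S core is a barrel of alpha rings, which gate the entry, and beta rings, which hold the protease sites. The 19S regulatory particle binds ubiquitin chains, unfolds the substrate with a ring of ATPases and feeds it into the core, and other activators and a set of assembly chaperones bind the core or its precursors. In immune cells and after interferon, the beta subunits Psmb8, Psmb9 and Psmb10 replace the constitutive protease subunits, and Psme1 and Psme2 form an activator of the core. In heart muscle the proteasome takes part in the turnover of sarcomere proteins. The 40 genes comprised 8 of the 20S alpha ring, 7 of the 20S beta ring, 2 other beta forms, 6 of the 19S ATPases, 10 non-ATPase subunits of the 19S particle, 2 chaperones of the 19S base, 3 activators and 2 chaperones of the core.

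According to the methods, RNA was extracted with an RNeasy kit from both ventricles without atria at E20 and with TRIzol from the left ventricular free wall at week 14, whereas the labels name the whole heart for E20 and TRIzol for every sample. Stage, tissue and extraction therefore cannot be told apart. The deposited log2 intensities ran from 6.64 to 15.53 with a median of 7.16, so a fold change of a gene near the lower end understates its difference in RNA. The measured cardiomyocyte markers had a mean log2 intensity between 12.06 and 12.89 on every array. The atrial light chain Myl7 was at 13.55 to 14.21 in F344 and at 13.76 to 14.28 in SHRSP at E20. At week 14 it was at 10.37 to 12.26 in F344 and at 7.47 to 8.20 in SHRSP. The adult F344 ventricles thus carried a signal of an atrial marker that was close to background in SHRSP. The part of this signal in the stage and strain results below was not tested. In whole tissue, fewer cells of a type and less RNA per cell cannot be told apart.

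Most proteasome genes were well above the lower end of the scale. Psme1 had the highest mean over the 26 arrays, 13.56, and 35 of the 40 genes had a mean log2 intensity of 8 or more. The other 5 were Psma3, Psma8, Psmb11, Psmc6 and Psmd8, with means down to 7.08. Of these, Psma8 is the alpha subunit of the testis and Psmb11 the beta subunit of the thymus cortex, whereas the other 3 belong to the proteasome of every cell, and signals of different probes cannot be set against each other. Within a group, single genes varied little. The pooled SD over the 4 groups ranged from 0.06 to 0.33 with a median of 0.15, against 0.16 for all named genes with a mean of 8 or more. Psmb10 had the largest SD, followed by the chaperone Psmd9 with 0.27 and the 19S subunit Psmd13 with 0.26.

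Expression was compared with limma in 1 model with a mean for each group. Benjamini-Hochberg adjustment covered every probe of the array, and a gene was called at an adjusted p under 0.05. Differences are given on the log2 scale with their standard error (SE). The limit of 1.5 on the log2 scale that the methods add was passed by 0 of the 40 genes in each of the 5 comparisons, since the largest difference of any of them was -1.34. Stages were computed as E20 minus week 14 and strains as SHRSP minus F344.

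Between E20 and week 14 the proteasome genes did not move as 1 block. Most of the called genes of the 19S particle were lower at E20, and most of the called genes of the 20S alpha ring were higher at E20. All called assembly chaperones, 2 of the base and 1 of the core in each strain, were higher at E20. In SHRSP, 8 of the 40 genes were higher and 10 were lower at E20, where 17.0% of all probes were higher and 15.7% lower, and 34.9% and 35.7% of the named genes with a mean of 8 or more. In F344, 8 were higher and 13 lower, against 18.6% and 17.2% of all probes and 36.5% and 37.3% of the brighter named genes. As a whole the proteasome genes were thus called no more often than the brighter genes of the array. Arrays of the stages did not overlap for 13 of the 40 genes in SHRSP and for 6 in F344, against 25.6% and 18.0% of all probes and 61.7% and 45.8% of the brighter named genes. The median log2 fold change was 0.02 in SHRSP and -0.10 in F344, against -0.00 and -0.01 over the brighter named genes. The balance of directions depended on whether arrays were centred on reference genes. With arrays centred on the median of probes with a mean of 8 or more, counts stayed at 8 higher and 10 lower in SHRSP. In F344 they stayed at 8 and 13. Another normalization, cyclic loess, gave 7 higher and 10 lower in SHRSP and 7 and 14 in F344. When each array was centred on 3 reference genes, which moved every log2 fold change by -0.11 in SHRSP and by -0.29 in F344, 2 genes were higher and 11 lower in SHRSP, and 1 was higher and 30 lower in F344. This shift applied to every probe, and the shares of all probes called under it are not given here, so these counts do not set the proteasome genes apart. Directions below are relative to the arrays as the authors scaled them.

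The same direction was called in both strains for 14 genes, 5 higher and 9 lower at E20. The 5 are among 8 higher genes in each strain, and the 9 among 10 lower genes in SHRSP and 13 in F344. A further 4 genes were called in SHRSP only and 7 in F344 only, 0 were called in opposite directions and 15 in neither. The share of all probes called alike in both strains was not computed, so these counts do not set the proteasome genes apart. The interaction of strain and stage, which tests whether the stage difference itself differs between the strains, called 0 of the 40 genes in either direction with limma, against 1.02% higher and 1.94% lower of all probes and 1.77% and 4.04% of the brighter named genes. At an unadjusted p under 0.05 there were 6 genes, and the smallest adjusted p was 0.0753 for Psme2. A call in 1 strain only therefore does not show a difference between the strains.

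**Figure D1:**
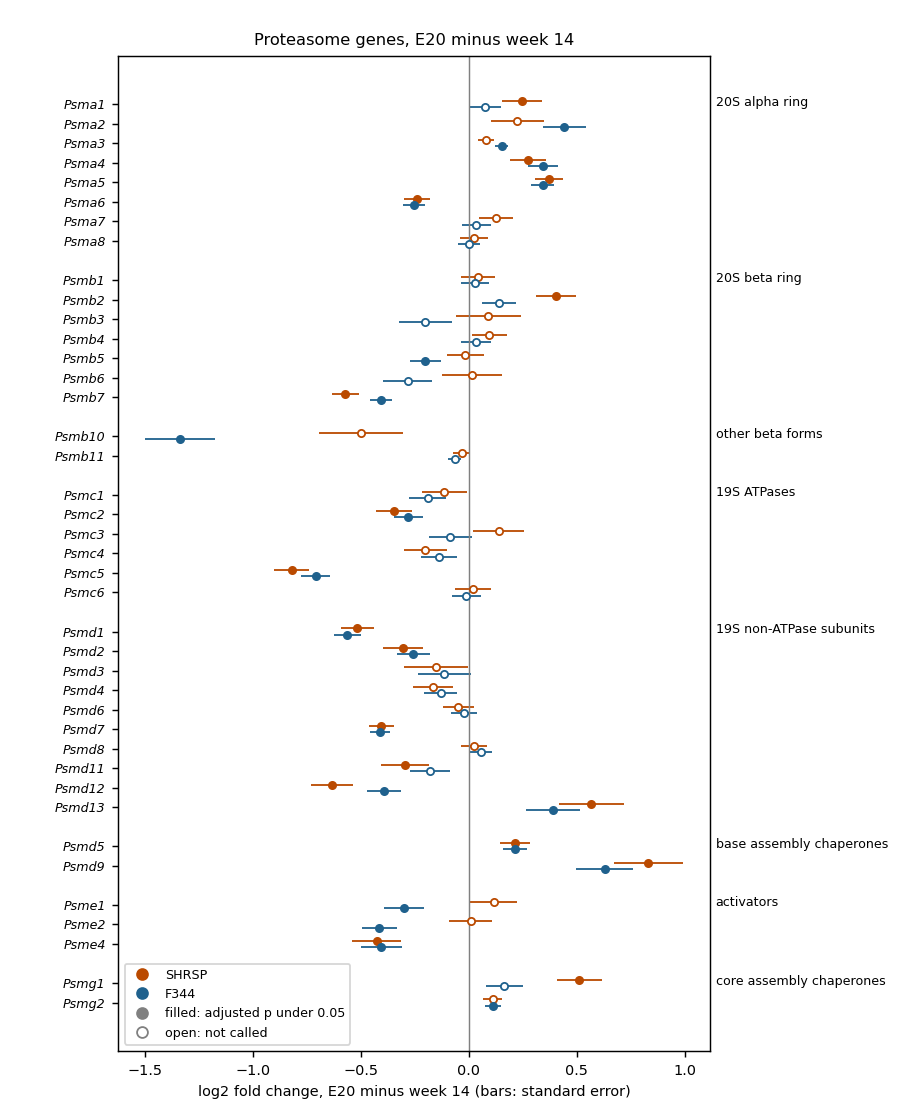
Log2 fold change of each of the 40 genes between E20 and week 14 in SHRSP (orange) and F344 (blue), with E20 minus week 14 on the horizontal axis, the genes grouped by role on the vertical axis, bars for the standard error and filled points for an adjusted p under 0.05. Psmc5 lay at -0.82 and -0.71, Psmd9 at 0.83 and 0.63, and Psmb10 at -1.34 in F344 and -0.50 in SHRSP.

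The 19S regulatory particle held 7 of the 10 decreases at E20 in SHRSP and 6 of the 13 in F344. Of its 16 genes, 7 were lower and 1 higher at E20 in SHRSP, and 6 were lower and 1 higher in F344, with medians of -0.18 and -0.16. The lower shares of 43.8% and 37.5% were near the 35.7% and 37.3% of the brighter named genes, so the lower counts do not set the particle apart. The higher share was 6.25% in each strain, against 34.9% and 36.5% of the brighter named genes, a gap that was not tested. The 16 include the dim Psmc6 and Psmd8, called in neither strain, so the shares over its brighter genes alone are larger. Psmc5, an ATPase of the ring that unfolds substrates, was at 10.16, 10.19, 10.23 and 10.04 in the 4 SHRSP arrays at E20 and between 10.80 and 11.14 (median 10.99) at week 14. The F344 values lay between 9.90 and 10.35 (median 10.16) at E20 and between 10.64 and 11.06 (median 10.89) at week 14. In both strains every array of E20 lay below every array of week 14. The log2 fold change was -0.82 in SHRSP (SE 0.08, adjusted p = 4.51e-09 from limma), a 1.77-fold difference, and -0.71 in F344 (SE 0.07, adjusted p = 1.59e-09), a 1.64-fold difference.

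Psmd12, a scaffold subunit of the lid of the 19S particle, was at 11.02, 11.00, 10.79 and 10.86 in SHRSP at E20 and between 11.35 and 11.74 (median 11.58) at week 14. In F344 its values were 10.76 to 11.22 (median 10.89) at E20 and 11.17 to 11.68 (median 11.32) at week 14. The stages were apart in SHRSP and touched in F344, where the highest fetal array was just above the lowest adult one. The difference was -0.63 in SHRSP (SE 0.10, adjusted p = 5.17e-06 from limma) and -0.39 in F344 (SE 0.08, adjusted p = 0.000207).

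Psmd1, the largest scaffold of the 19S base, was at 10.28, 10.30, 10.18 and 10.10 in SHRSP at E20 and at 10.62 to 10.88 (median 10.74) at week 14. The F344 range was 9.94 to 10.23 (median 10.00) at E20 and 10.44 to 10.84 (median 10.62) at week 14, so that the stages did not overlap in either strain. The log2 fold changes were -0.52 (SE 0.08) and -0.56 (SE 0.06), with adjusted p = 3.33e-06 and 3.11e-08 from limma. Psmd7, the partner of the subunit that removes ubiquitin from substrates, differed by -0.41 in both strains and its stages did not overlap either. The ATPase Psmc2 was lower at E20 with -0.35 in SHRSP and -0.28 in F344, and Psmd2, on which shuttle proteins dock, with -0.30 and -0.26. Psmd11, which clamps the 19S particle to the core, passed the test in SHRSP with -0.30 (adjusted p = 0.0410 from limma) and not in F344 with -0.18 (adjusted p = 0.138). The call of Psmd11 was lost without any 1 of the SHRSP replicates 1, 3 and 4 at E20 or 2, 6 and 7 at week 14, with adjusted p up to 0.121, and that of Psmd2 in SHRSP without replicate 4 at E20 (adjusted p = 0.0570). With close pairs of fetal arrays averaged both calls were lost, and that of Psmd11 also with limma-trend, cyclic loess or background subtraction (adjusted p up to 0.167).

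A single called 19S subunit went the other way, with a call that depended on the scaling. Psmd13, a further lid subunit, was at 9.93, 10.04, 9.62 and 9.48 in SHRSP at E20 and between 8.93 and 9.49 (median 9.19) at week 14. In F344 it ranged from 9.65 to 10.36 (median 9.77) at E20 and from 9.03 to 9.85 (median 9.52) at week 14. The stages overlapped in both strains, and the difference was 0.57 in SHRSP (SE 0.15, adjusted p = 0.00416 from limma) and 0.39 in F344 (SE 0.13, adjusted p = 0.0154). Centred on the reference genes it was called in neither strain, and the F344 value was 0.096 (adjusted p = 0.531). The other 8 genes of the particle were not called in SHRSP, among them the ubiquitin receptor Psmd4 with -0.17 and the lid subunit Psmd3 with -0.15.

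In the 20S alpha ring 7 of 8 genes had a positive log2 fold change in each strain, and 3 in SHRSP and 4 in F344 were called higher at E20. These 3 and 4 of 8 stand beside 34.9% and 36.5% of the brighter named genes, so the higher counts do not set the ring apart. The lower share was 12.5% in each strain, against 35.7% and 37.3% of the brighter named genes, a gap that was not tested. The 8 include the dim Psma3 and Psma8, and Psma8 was level between the stages, with 0.02 in SHRSP and 0.0008 in F344. Psma5 was at 11.48, 11.42, 11.29 and 11.35 in SHRSP at E20 and between 10.89 and 11.15 (median 11.01) at week 14. Its range in F344 was between 11.26 and 11.46 (median 11.37) at E20 and between 10.84 and 11.37 (median 11.00) at week 14. The stages were apart in SHRSP, and in F344 they overlapped through replicate 3 of week 14, which lay at the level of the fetal arrays. The difference was 0.37 in SHRSP (SE 0.07, adjusted p = 4.82e-05 from limma) and 0.34 in F344 (SE 0.05, adjusted p = 9.47e-06).

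Psma4, another alpha subunit, was at 11.45, 11.65, 11.59 and 11.57 in SHRSP at E20 and at 11.03 to 11.39 (median 11.36) at week 14. The corresponding ranges in F344 were 11.41 to 11.78 (median 11.69) and 11.15 to 11.61 (median 11.26). The stages were apart in SHRSP and overlapped in F344. The differences of 0.28 and 0.34 were called (adjusted p = 0.0104 and 0.000175 from limma), and that of SHRSP was lost when its fetal arrays were averaged in close pairs. Psma2 had 12.39, 12.37, 12.25 and 12.37 in SHRSP at E20 against 11.83 to 12.37 (median 12.08) at week 14, and 12.20 to 12.90 (median 12.44) against 11.71 to 12.32 (median 12.03) in F344. Its arrays overlapped between the stages in both strains, and only the difference of 0.44 in F344 was called (SE 0.10, adjusted p = 0.000774), while that in SHRSP was 0.22 (adjusted p = 0.180). Psma1 was called in SHRSP alone with 0.25 (adjusted p = 0.0411), and the call was lost without any 1 of the SHRSP replicates 1 and 2 at E20 or 2 to 6 at week 14, with adjusted p up to 0.204. Psma3 was called in F344 alone with 0.15 near the lower end of the scale. The exception of the ring was Psma6, which was lower at E20 with log2 fold changes of -0.24 in SHRSP and -0.25 in F344 (adjusted p = 0.00298 and 0.000211). Under the centring on reference genes every higher call of the ring was lost in both strains, and Psma3 changed direction. The call of Psma1 was lost under 6 of 12 other alternatives (adjusted p up to 0.494).

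The constitutive protease subunits of the beta ring are Psmb5, Psmb6 and Psmb7, with chymotrypsin-like, caspase-like and trypsin-like activity. Psmb7 had the largest decrease of the ring at E20. It was at 11.48, 11.46, 11.50 and 11.39 in SHRSP at E20 and between 11.91 and 12.21 (median 11.99) at week 14. In F344 the ranges were 11.28 to 11.53 (median 11.36) and 11.65 to 12.00 (median 11.82). Every fetal array lay below every adult array of its strain, with differences of -0.57 (SE 0.06, adjusted p = 2.14e-08 from limma) and -0.41 (SE 0.05, adjusted p = 2.45e-07).

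Psmb5 was nearly level in SHRSP, with 12.19, 12.30, 12.24 and 12.14 at E20 and 12.14 to 12.34 (median 12.23) at week 14, and the log2 fold change was -0.02 with a 95% interval from -0.19 to 0.16. In F344 it was at 11.75 to 12.32 (median 12.17) at E20 and 12.05 to 12.54 (median 12.32) at week 14. This difference of -0.20 was called (adjusted p = 0.0272 from limma) but not without any 1 of replicates 2 and 4 at E20 or replicates 6 and 7 at week 14, where adjusted p was up to 0.0856. It was also lost with only the groups of the comparison, limma-trend, array weights or background subtraction (adjusted p up to 0.0776). Psmb6 was at 11.47, 11.44, 11.67 and 11.61 against 11.27 to 11.78 (median 11.55) in SHRSP, and at 10.87 to 11.79 (median 11.39) against 11.18 to 11.95 (median 11.67) in F344. Its arrays overlapped widely, and the log2 fold changes of 0.01 and -0.28 were not called (adjusted p = 0.957 and 0.0545). Among the structural beta subunits, Psmb2 was at 12.29, 12.27, 12.42 and 12.32 in SHRSP at E20, all above the adult range of 11.81 to 12.04 (median 11.92). In F344 the ranges of Psmb2 were 11.98 to 12.34 (median 12.20) and 11.70 to 12.42 (median 12.09). It was called in SHRSP with 0.40 (adjusted p = 0.00103) and not in F344 with 0.14 (adjusted p = 0.175), and the call was lost under the centring on reference genes (adjusted p = 0.102). Psmb1, Psmb3 and Psmb4 were not called in either strain.

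**Figure D2:**
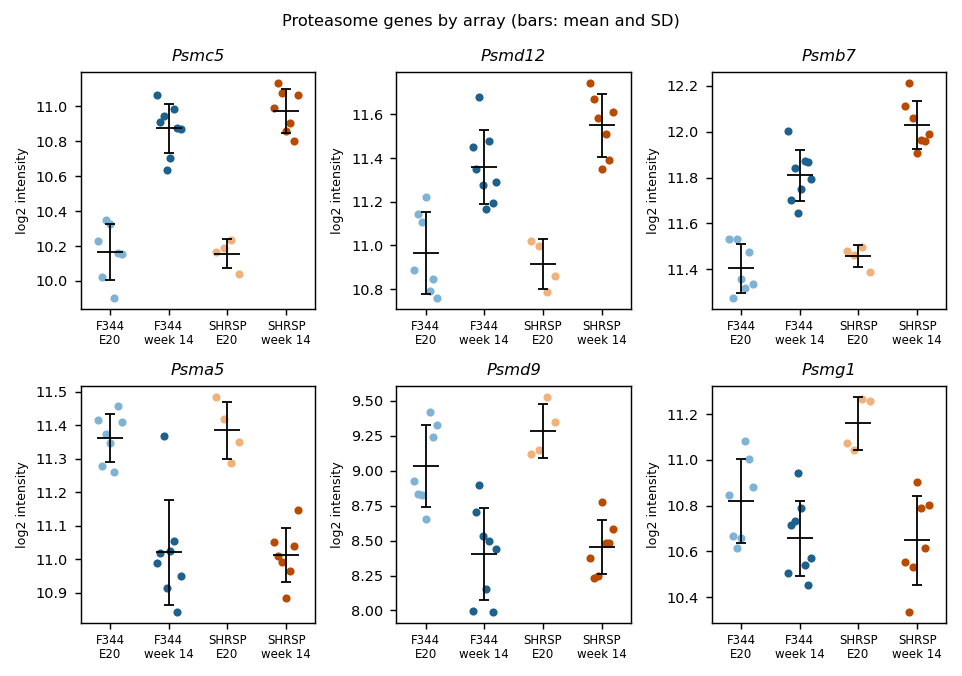
Log2 intensity of Psmc5, Psmd12, Psmb7, Psma5, Psmd9 and Psmg1 on each array of the 4 groups, with points for arrays and bars for the mean and SD. Psmc5 and Psmb7 are lower on every fetal array than on every adult array of the same strain, and Psma5 and Psmd9 are higher at E20 on average.

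The assembly chaperones were called higher at E20 or not called, but they are few. In each strain 2 of 2 base chaperones and 1 of 2 core chaperones were called. The shares of brighter named genes called higher were 34.9% in SHRSP and 36.5% in F344, and counts this small do not set the chaperones apart. Psmd9, a chaperone that holds ATPases of the 19S base before the particle is complete, was at 9.12, 9.15, 9.53 and 9.35 in SHRSP at E20 and between 8.23 and 8.78 (median 8.48) at week 14. F344 had values between 8.65 and 9.42 (median 8.93) at E20 and between 7.99 and 8.90 (median 8.47) at week 14. The stages were apart in SHRSP and overlapped in F344. The differences of 0.83 (SE 0.16, adjusted p = 0.000129 from limma) and 0.63 (SE 0.13, adjusted p = 0.000324) were the largest increases among the 40 genes. Psmd5, another chaperone of the base, was higher by 0.21 and 0.22, and without replicate 1 or replicate 2 of SHRSP at E20 its call in SHRSP was lost (adjusted p up to 0.0798), as it was with close pairs averaged or the centring on reference genes. In F344 the centring on reference genes changed its direction, to -0.079.

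Psmg1, a chaperone of the alpha ring, was at 11.07, 11.04, 11.27 and 11.26 in SHRSP at E20 and at 10.34 to 10.90 (median 10.62) at week 14, with no overlap. F344 arrays were at 10.61 to 11.09 (median 10.85) and 10.46 to 10.94 (median 10.64), with wide overlap. The difference was 0.51 in SHRSP (SE 0.10, adjusted p = 0.000233 from limma) and 0.17 in F344 (adjusted p = 0.145), while the interaction, 0.35, was not called (adjusted p = 0.238). Its partner Psmg2 differed by 0.11 in both strains and was called in F344 alone, a call lost with limma-trend, cyclic loess or background subtraction and reversed in direction by the centring on reference genes.

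The promoter of Psmd9 is shown because this gene had the largest increase at E20. The window, from RefSeq on build GRCr8, spans the annotated start and lies mostly before it (chr12:39018215-39018514, minus strand), and capitals mark matches, on either strand, to TGACNNNGC, the core of the antioxidant response element to which Nfe2l1 and Nfe2l2 bind, and to CCAAT, the box bound by the NF-Y factors.
Psmd9: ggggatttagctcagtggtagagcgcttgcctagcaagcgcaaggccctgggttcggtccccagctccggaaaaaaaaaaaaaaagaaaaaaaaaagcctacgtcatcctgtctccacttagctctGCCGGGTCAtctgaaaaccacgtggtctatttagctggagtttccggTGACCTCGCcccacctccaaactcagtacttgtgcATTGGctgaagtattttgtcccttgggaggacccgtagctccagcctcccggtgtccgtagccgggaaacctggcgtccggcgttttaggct
It held TGACNNNGC 2 times and CCAAT 1 time. Of the 40 genes, 36 had a promoter in the table, and 8 of these (22.2%) held TGACNNNGC against 12.1% of 33469 promoters, while 15 (41.7%) held CCAAT against 37.5%. Some of the windows, as those of Psmd5, Psmd3, Psma6 and Psmb1, lie inside the annotated gene and not before its start. A match describes these letters only.

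Over whole arrays the 2 parts of the particle differed in their pattern. The median deviation of the 16 genes of the 19S particle from their means over all arrays was between -0.22 and -0.10 in SHRSP at E20 and between 0.03 and 0.22 at week 14, without overlap. The F344 medians were between -0.15 and 0.04 at E20 and between -0.12 and 0.34 at week 14, with overlap. The 8 genes of the alpha ring went the other way, with 0.01 to 0.17 at E20 against -0.21 to -0.01 at week 14 in SHRSP and -0.02 to 0.17 against -0.17 to 0.04 in F344. Marker genes of several cell types moved with stage as well. Of 6 measured genes of cycling cells 5 were higher at E20 in each strain and 1 was lower in F344, all 4 measured macrophage genes were lower in each strain, and of 7 measured cardiomyocyte genes 4 were lower in SHRSP and 3 in F344. The mean log2 intensity of the macrophage genes was 7.68 to 8.22 at E20 and 9.04 to 9.95 at week 14, that of the cycling genes 9.91 to 10.18 and 7.02 to 7.56. Their part in the stage differences was not tested.

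**Figure D3:**
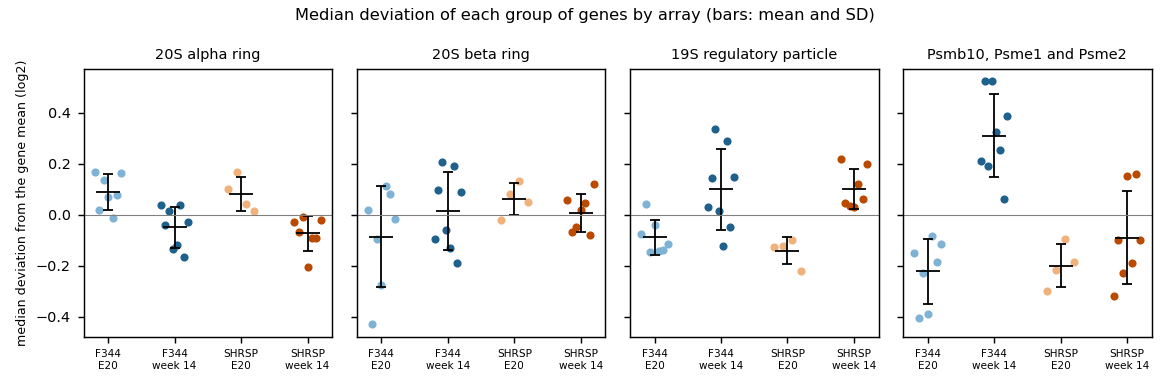
Median deviation, on the log2 scale, of the genes of the 20S alpha ring, the 20S beta ring, the 19S particle and the trio Psmb10, Psme1 and Psme2 from each gene's mean over all 26 arrays, by array and group, with bars for the mean and SD. The 19S medians of SHRSP do not overlap between E20 and week 14, and the trio is highest in F344 at week 14, from 0.06 to 0.52.

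The third activator, Psme4, caps the core independently of ubiquitin and ATP. It was at 10.69, 10.67, 10.28 and 10.45 in SHRSP at E20 and at 10.67 to 11.12 (median 11.01) at week 14. The range in F344 was 10.08 to 10.37 (median 10.26) at E20 and 10.17 to 11.05 (median 10.70) at week 14. Psme4 was lower at E20 in both strains, by log2 fold changes of -0.43 (SE 0.11, adjusted p = 0.00397 from limma) and -0.40 (SE 0.09, adjusted p = 0.000960). The adult arrays of F344 spanned most of the range of the gene, since replicate 7 lay at the fetal level.

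Psmb10, Psme1 and Psme2 were lower at E20 in F344 and were not called in SHRSP. Markers of T and NK cells moved likewise, with 7 of 8 lower at E20 in F344, 4 lower and 1 higher in SHRSP, and 7 of 8 called in the interaction, and their part was not tested. Psmb10, the inducible form of Psmb7, was between 8.96 and 10.16 (median 9.78) in F344 at E20 and between 10.52 and 11.36 (median 11.04) at week 14, without overlap. In SHRSP it was at 9.83, 9.80, 10.12 and 10.03 at E20 and between 10.00 and 10.83 (median 10.45) at week 14, where the lowest adult array lay among the fetal ones. The stage difference was -1.34 in F344 (SE 0.16, adjusted p = 1.18e-07 from limma), a 2.53-fold lower intensity at E20, and -0.50 in SHRSP (SE 0.20, adjusted p = 0.0521), where it passed in 7 of 26 fits without 1 array (adjusted p down to 0.0250) and under 7 of 12 other alternatives (adjusted p down to 0.0121), limma-trend, array weights and cyclic loess among them. The interaction was 0.84 with a 95% interval from 0.32 to 1.36 and an adjusted p of 0.0795. It passed without replicate 5 of F344 at E20 or replicate 7 of F344 at week 14, with an adjusted p down to 0.0374. It also passed under 4 of 11 other alternatives, limma-trend and the centring on reference genes among them (adjusted p down to 0.0355). The second probe of Psmb10 had the same directions, with -0.91 in F344 and -0.31 in SHRSP, and its interaction of 0.60 was called (adjusted p = 0.0408), so the 2 probes fell on different sides of the threshold.

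Psme1, the alpha subunit of the interferon-induced activator, was between 13.33 and 13.82 (median 13.49) in F344 at E20 and between 13.62 and 14.08 (median 13.78) at week 14. In SHRSP it was at 13.26, 13.34, 13.62 and 13.60 at E20 and between 13.13 and 13.71 (median 13.30) at week 14. The stages overlapped in both strains, and the difference was -0.30 in F344 (SE 0.09, adjusted p = 0.0103 from limma) and 0.11 in SHRSP (adjusted p = 0.505). Psme2, its beta subunit, was between 8.91 and 9.46 (median 9.20) in F344 at E20 and between 9.22 and 9.83 (median 9.58) at week 14. In SHRSP it was at 9.26, 9.35, 9.22 and 9.13 at E20 and between 9.09 and 9.47 (median 9.21) at week 14, practically the same range. The difference was -0.42 in F344 (SE 0.08, adjusted p = 0.000137) and 0.01 in SHRSP with a 95% interval from -0.19 to 0.21. The interactions were 0.41 for Psme1 (adjusted p = 0.153) and 0.42 for Psme2 (adjusted p = 0.0753), and that of Psme2 passed without replicate 1 of F344 at E20, replicate 7 of F344 at week 14 or replicate 6 of SHRSP at week 14 (adjusted p down to 0.0177). That of Psme2 also passed with array weights or only brighter probes (adjusted p down to 0.0193), and that of Psme1 with cyclic loess (adjusted p = 0.0450).

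Between the strains at week 14, few proteasome genes differed. SHRSP had a lower intensity of Psme1, Psmb10, Psme2 and Psmc1 and a higher intensity of Psmb7, so 1 gene was higher and 4 were lower. The background was 4.49% higher and 4.46% lower of all probes and 10.3% and 10.6% of the named genes with a mean of 8 or more. The lower count of 4 in 40 was near that of the brighter genes. Centred on the reference genes, 2 were higher and 1 was lower, Psme1, so that the calls of Psmb10, Psme2 and Psmc1 were lost. The median over the 40 genes was -0.00, and for 36 of them the 95% interval of the difference lay within 0.5 of 0. Arrays of the strains overlapped for all 40 genes, while they were apart for 3.38% of all probes and 7.62% of the brighter named genes.

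Psme1 had the smallest adjusted p. Its week 14 values, 13.62 to 14.08 in F344 and 13.13 to 13.71 in SHRSP, overlapped only through replicate 4 of SHRSP and the lowest F344 arrays, and the log2 fold change was -0.49 (SE 0.09, adjusted p = 0.000398 from limma). Psme2 differed by -0.33 (SE 0.08, adjusted p = 0.00618), with the ranges 9.22 to 9.83 and 9.09 to 9.47. Psmb10 differed by -0.55 (SE 0.16, adjusted p = 0.0298), with 10.52 to 11.36 and 10.00 to 10.83, and its second probe by -0.40 (adjusted p = 0.0127). All 3 genes were lower in SHRSP with partly shared ranges. The call of Psmb10 rested on several arrays, since it was lost without any 1 of replicates 2, 3, 4 and 6 of F344 or replicates 1, 2 and 7 of SHRSP, with adjusted p up to 0.0782, whereas Psme1 and Psme2 were called without any 1 array.

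Psmc1, an ATPase whose tail helps to open the gate of the core, was between 12.52 and 13.28 (median 12.80) in F344 and between 12.43 and 12.74 (median 12.50) in SHRSP at week 14. The ranges overlapped, and only replicates 3 and 6 of F344 stood above 13, at 13.28 and 13.06. The log2 fold change was -0.31 (SE 0.09, adjusted p = 0.0215 from limma) and without replicate 6 of F344 the gene was not called (adjusted p = 0.0517). Nor was it called with only the groups of the comparison, the replicate block, the centring on reference genes or background subtraction (adjusted p up to 0.372). At E20 it was at 12.40, 12.31, 12.54 and 12.42 in SHRSP and 12.46 to 12.88 (median 12.65) in F344, and the difference of -0.23 was not called (adjusted p = 0.384). Psmb7 was between 11.65 and 12.00 (median 11.82) in F344 and between 11.91 and 12.21 (median 11.99) in SHRSP at week 14. It was higher in SHRSP by 0.22 (SE 0.05, adjusted p = 0.00426), a call lost with limma-trend or background subtraction (adjusted p up to 0.0649), and this is the opposite direction to Psmb10, which takes its place in the core of immune cells. Psme4 was higher in SHRSP by 0.29 without passing the threshold (adjusted p = 0.0583).

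**Figure D4:**
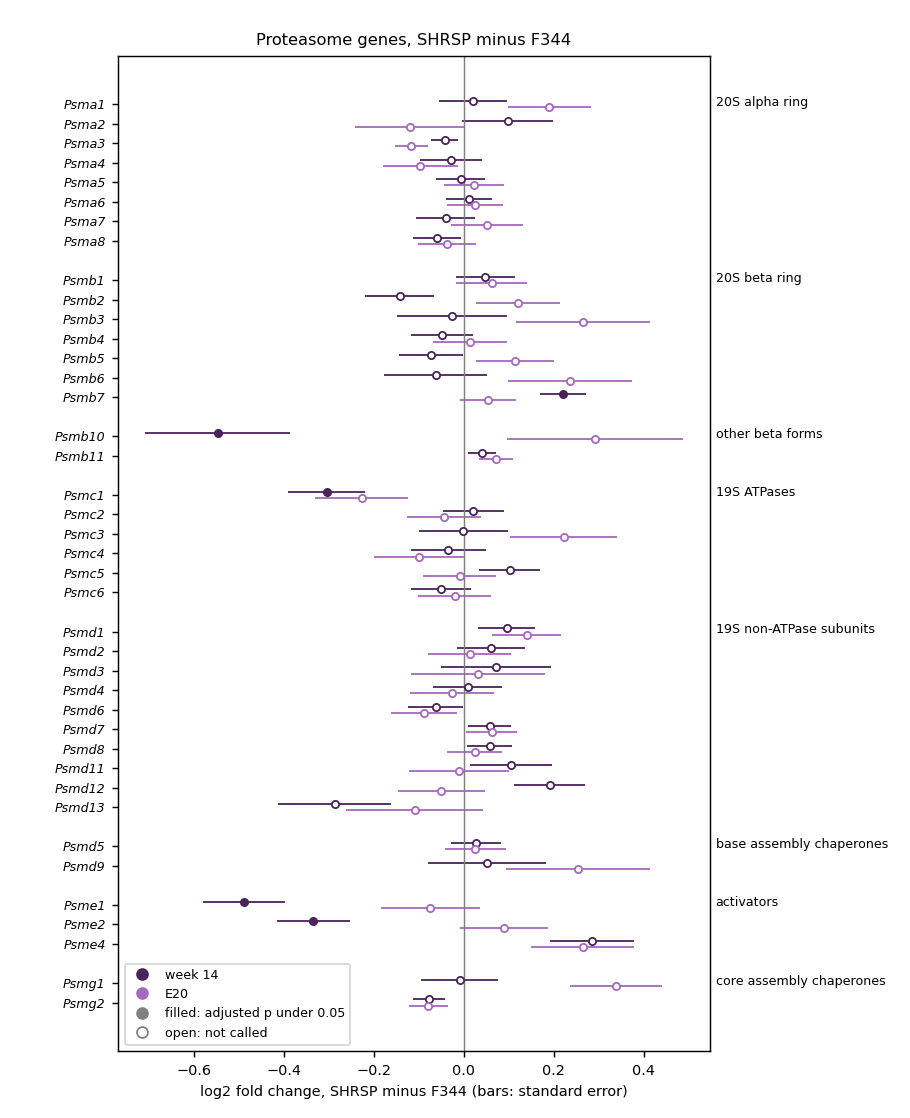
Log2 fold change of each of the 40 genes between the strains at week 14 (dark purple) and at E20 (light purple), with SHRSP minus F344 on the horizontal axis, the genes grouped by role on the vertical axis, bars for the standard error and filled points for an adjusted p under 0.05. At week 14 the filled points are Psmb7 at 0.22, Psmb10 at -0.55, Psmc1 at -0.31, Psme1 at -0.49 and Psme2 at -0.33, and no point of E20 is filled.

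At E20 limma called 0 of the 40 genes higher and 0 lower in SHRSP, against 1.55% and 1.66% of all probes and 3.38% and 3.92% of the brighter named genes. There were 5 genes at an unadjusted p under 0.05, and Psmg1 came closest with 0.34 (adjusted p = 0.0785). The 95% interval lay within 0.5 of 0 for 35 genes and within 1 for all 40. The arrays of the strains were apart for 1 gene, Psma3, which is dim, against 4.66% of all probes and 10.3% of the brighter named genes. Centred on the reference genes, which moved every difference at this stage by 0.29, 29 of the 40 genes were higher and 0 lower. The shift applied to every probe, and the share of all probes called under it is not given here. This count therefore does not set the proteasome genes apart. All 7 genes of the beta ring had a positive difference, from 0.01 to 0.27. Psmb10 differed by 0.29 and Psme1 by -0.07, with intervals from -0.11 to 0.69 and from -0.30 to 0.15. Psme2 differed by 0.09, with an interval from -0.11 to 0.29.

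**Figure D5:**
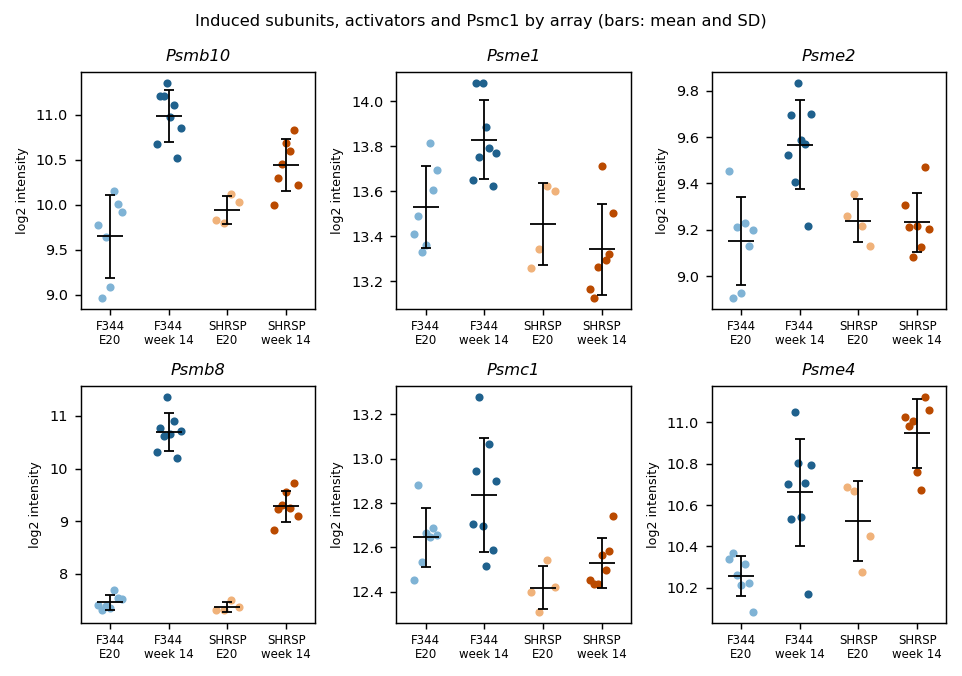
Log2 intensity of Psmb10, Psme1, Psme2, Psmb8, Psmc1 and Psme4 on each array of the 4 groups, with points for arrays and bars for the mean and SD. Psmb10, Psme1, Psme2 and Psmb8 have their highest group mean in F344 at week 14, and Psmb8 of the strains does not overlap at that stage.

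The neighbours of Psmb10 in the inducible core were lower in SHRSP at week 14, and the genes of peptide loading were divided. Psmb8 was between 10.19 and 11.37 (median 10.68) in F344 and between 8.84 and 9.72 (median 9.25) in SHRSP, without overlap. The difference was -1.41 on the log2 scale (SE 0.13, limma adjusted p = 4.0e-09), and its interaction of 1.33 was called (adjusted p = 8.13e-05). Psmb9 differed by -0.46 (adjusted p = 0.000431). Of 6 measured genes of the inducible core and of class I loading, 4 were lower in SHRSP at week 14, including B2m with -0.33 and the peptide transporter subunit Tap2 with -0.16, whereas Tap1 and Tapbp had 0.13 and 0.09 and were not called. Markers of T and NK cells moved with these genes, since 7 of 8 were lower in SHRSP at week 14. Their mean log2 intensity was 8.13 to 8.76 in F344 and 7.51 to 7.71 in SHRSP at week 14 and 7.16 to 7.21 at E20, near the median of all probes. Of 4 measured macrophage genes 0 were called between the strains. The part of these cells in the difference of Psmb10, Psme1 and Psme2 was not tested.

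Within groups, Psmb10 varied with Psmb8. Over the 7 SHRSP arrays of week 14 Pearson's r was 0.95 (exact permutation p = 0.000992, adjusted p = 0.0298, two-sided) and Spearman's rho 0.96 (exact permutation p = 0.00278, adjusted p = 0.0417), and r was 0.84 without the 2 arrays farthest from the median of Psmb10. Over the 8 F344 arrays of week 14 r was 0.87 (exact permutation p = 0.00432, adjusted p = 0.0481) and rho 0.79 (exact permutation p = 0.0279, adjusted p = 0.0838), and r was 0.65 without the 2 farthest arrays. Over the 7 F344 arrays of E20 r was 0.88 (exact permutation p = 0.00734, adjusted p = 0.0548), rho was 1 (exact permutation p = 0.000397, adjusted p = 0.0119) and r was 0.97 without the 2 farthest. These were 3 of 30 relations among Psmb10, Psme1, Psme2, Psmb8 and Psmb9 in 3 groups, over which the p-values were adjusted. Between Psmb10 and Psme1, r was 0.81 in F344 at week 14 (exact permutation p = 0.0170, adjusted p = 0.0613) and 0.42 in SHRSP at week 14 (exact permutation p = 0.357, adjusted p = 0.465). Between Psme1 and Psme2 it was 0.79 in F344 (exact permutation p = 0.0184, adjusted p = 0.0613) and -0.05 in SHRSP (exact permutation p = 0.903, adjusted p = 0.934), and whether the strains differ in these relations was not tested.

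The promoters of these 3 genes are shown because the genes were lower together in SHRSP at week 14. Capitals mark matches, on either strand, to GAAANNGAA, a form of the interferon-stimulated element. The windows are at chr19:50743243-50743542, minus strand, chr15:33052702-33053001, minus strand, and chr15:33038721-33039020, plus strand. Those of Psmb10 and Psme1 span the annotated start and lie mostly before it, whereas that of Psme2 lies inside the annotated gene. Psme1 and Psme2 lie close together on this chromosome.
Psmb10: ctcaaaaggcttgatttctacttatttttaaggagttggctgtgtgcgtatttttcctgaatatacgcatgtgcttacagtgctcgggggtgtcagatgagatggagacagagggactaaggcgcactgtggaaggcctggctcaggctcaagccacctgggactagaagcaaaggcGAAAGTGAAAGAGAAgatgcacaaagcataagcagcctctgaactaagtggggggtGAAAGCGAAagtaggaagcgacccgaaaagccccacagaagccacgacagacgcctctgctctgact
Psme2: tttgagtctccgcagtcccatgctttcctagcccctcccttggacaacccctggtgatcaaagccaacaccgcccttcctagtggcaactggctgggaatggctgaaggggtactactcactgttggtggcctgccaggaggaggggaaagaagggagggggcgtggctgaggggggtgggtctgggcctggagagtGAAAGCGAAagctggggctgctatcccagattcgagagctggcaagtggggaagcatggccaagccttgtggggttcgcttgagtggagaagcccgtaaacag
Psme1: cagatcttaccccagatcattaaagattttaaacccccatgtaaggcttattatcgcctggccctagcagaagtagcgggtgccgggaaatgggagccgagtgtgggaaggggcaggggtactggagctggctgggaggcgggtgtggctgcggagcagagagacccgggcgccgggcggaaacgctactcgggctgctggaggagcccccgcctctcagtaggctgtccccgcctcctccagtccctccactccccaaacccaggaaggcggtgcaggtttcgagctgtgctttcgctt
Psmb10 held the motif 3 times, with 2 of the matches overlapping, Psme2 held it 1 time and Psme1 did not hold these letters in this window. Among the 36 promoters 7 (19.4%) held it, against 9.71% of all 33469. TTCNNNGAA, the element bound by STAT proteins, stood in 3 of 36 (8.33%) and in 8.87% of all. Both were searched after the values of the genes were seen.

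The arrays of F344 at week 14 spread most. The median SD of the 40 genes was 0.17 there, against 0.13 in F344 at E20, 0.10 in SHRSP at E20 and 0.13 in SHRSP at week 14. The authors had removed arrays that correlated poorly within their group. By the animal numbers in the methods, F344 at week 14 alone lost none, and SHRSP at E20 lost most. The SDs are those of the arrays left, and the part of this removal in their order was not tested. Replicate 3 was the highest of the 8 arrays for 16 of the 40 genes and replicate 7 the lowest for 17. Over the named genes with a mean of 8 or more, replicate 3 was the highest for 22.9% and the lowest for 26.8%, so it was often extreme in either direction. Replicate 7 was the lowest for 12.7% of them and the highest for 14.3%. The median deviation of the proteasome genes was 0.20 in replicate 3 and -0.12 in replicate 7, while that of the named genes was -0.01 and 0.01 in these arrays. In SHRSP at E20, replicates 1 and 2 often lay together and apart from replicates 3 and 4, as for Psmb10, Psme1, Psmg1 and Psmd9. With each of these pairs averaged, 5 of the 40 genes were higher at E20 in SHRSP in place of 8.

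Of the partners of the proteasome outside the naming rule, 8 of 12 were measured. Akirin2, which brings proteasomes into the nucleus, differed between the strains at both stages without overlap of the arrays. It was at 9.19 to 9.56 (median 9.35) in F344 and 9.87 to 10.19 (median 9.91) in SHRSP at week 14, and at 9.29 to 9.65 (median 9.50) in F344 and 9.91, 9.89, 9.97 and 9.91 in SHRSP at E20. Every SHRSP array was above every F344 array of its stage, by 0.60 at week 14 (SE 0.06, adjusted p = 4.03e-09 from limma) and 0.44 at E20 (SE 0.07, adjusted p = 8.09e-05). Between the stages, 3 of the partners were higher and 2 lower at E20 in SHRSP and 4 higher and 2 lower in F344. Uchl5 and Usp14, deubiquitinases that bind the 19S particle, were higher in the fetal hearts, with 0.48 and 0.35 in SHRSP and 0.44 and 0.31 in F344, the opposite direction to most called subunits of the particle. The core chaperone Pomp was higher by 0.32 and 0.19, and Txnl1, a thioredoxin that binds the 19S particle, was lower with -0.77 and -0.42.

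Among 6 measured regulators of proteasome transcription, 2 were higher and 1 lower at E20 in each strain. Ngly1, which removes sugars from Nfe2l1 in its activation, had -0.65 in SHRSP and -0.63 in F344, and Nfyb had 0.24 and 0.22. Nfe2l2, an activator of proteasome and antioxidant genes, was lower in SHRSP at week 14 with -0.25 (adjusted p = 0.0244 from limma) and higher at E20 in SHRSP with 0.33. Of 8 measured genes of ubiquitin shuttles and extraction, 3 were higher at E20 in each strain, the shuttles Ubqln1, Ubqln2 and Ubqln4, with 0.44, 0.51 and 0.26 in SHRSP. Of these 8, 2 were lower at E20 in SHRSP and 1 in F344. Of 8 measured ubiquitin ligases of muscle, 1 was higher and 3 lower at E20 in SHRSP and 2 higher and 4 lower in F344. Trim54, a sarcomere ligase of the MuRF family, was at 9.12 to 9.69 (median 9.60) in F344 at E20 and 12.41 to 13.06 (median 12.73) at week 14, with differences of -3.21 in F344 and -3.12 in SHRSP. The ligase Nedd4 went the other way, with 1.08 in SHRSP and 0.83 in F344.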

How the data were processed

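Heart RNA was measured on Illumina RatRef-12 BeadChips. The authors exported probe profiles with GenomeStudio, removed poorly correlated arrays of a group with lumi, and deposited log2 values after quantile normalization. These were used unchanged for 22523 probes on 26 arrays, without a filter on detection. A table of raw intensities with 52 columns was not used, since its column numbers match no sample label. The platform annotation gives 1 gene name for 13793 probes, several for 0, and 8730 are unnamed here.

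limma 3.58.1 in R 4.3.3 was fitted with 4 group means, with Benjamini-Hochberg adjustment over the whole array. The fit was tested on simulated data. Correlations within groups were tested with exact permutation tests (two-sided), computed with NumPy 2.4.6 and with ranks from SciPy 1.17.1. Plots were made with Matplotlib 3.10.9. The members, gene lists and markers were chosen with earlier results of these data known. Values per array are given for up to 4 called genes with the largest differences in each direction of each comparison, for genes called between the strains or in the interaction, for the protease subunits and the activators, and of other lists for up to 4 called genes, with Psmb8 and Psmb9 as neighbours of Psmb10. Psma5, narrowly outside this rule, was added after its values were seen. Promoters came from RefSeq (GRCr8). Replicate numbers were not taken as pairs. Alternatives were other variance models, array weights, centrings, normalizations, filters, thresholds, a replicate block and fits without each array in turn.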

Additional observations from a re-analysis of the deposited data

Results flagged for a closer look

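Of 160 sets of values, 1 for each gene and group, 7 (4.38%) held an array whose gap to its nearest neighbour was large for the range of the group. Chance flags about 1 in 20 such groups. Psma5 was at 11.37 and Psmd5 at 8.46 in replicate 3 of F344 at week 14, above the next arrays at 11.05 and 8.27. In SHRSP at E20, Psma2 was low in replicate 3 with 12.25 against 12.37 in the next array, Psma6 was high in replicate 1 with 12.40 against 12.23, and Psma8 was low in replicate 3 with 6.92 against 7.11. In F344 at E20, Psma4 was low in replicate 5 with 11.41 against 11.62, and Psmc6 was high in replicate 2 with 7.51 against 7.37. Psma8 and Psmc6 are near the lower end of the scale. Without that array, the stage calls of Psma4, Psma5 and Psma6 stayed past the threshold in both strains.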

How the results depend on the processing

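The centring on reference genes mattered most. Centring on the median of probes with a mean of 8 or more kept all 59 results of single genes. Centred on 3 reference genes (Hprt1, Ywhaz and Tbp), every log2 fold change moved by 0.10 between the strains at week 14, 0.29 at E20, -0.11 between the stages in SHRSP, -0.29 in F344 and 0.19 in the interaction. The medians of the 40 genes became 0.10, 0.31, -0.092, -0.39 and 0.20, and the counts were 2 higher and 1 lower at week 14, 29 higher at E20, 2 higher between the stages in SHRSP, 1 higher and 30 lower in F344, and 1 higher in the interaction. In F344, Psma3 (-0.14), Psmd5 (-0.079) and Psmg2 (-0.18) changed direction. The shift was the same for every gene of a comparison, and the shares of all probes called under it are not given here. Between the strains at week 14, the higher count was 0 with limma-trend or background subtraction and 2 with array weights or only probes with a mean of 8 or more, and the lower count 2 at an adjusted p under 0.01. At E20 array weights gave 1 higher and 1 lower, and 1 was higher with the replicate block or only brighter probes. In SHRSP, 5 were higher at E20 with close pairs averaged or at an adjusted p under 0.01. In the interaction, 1 was higher with limma-trend, array weights, cyclic loess or the mean over probes, and 2 with only brighter probes. With the fold limit of 1.5, counts were 0 at week 14 and in both strains. Without each array in turn, higher and lower counts were 1 to 3 and 2 to 4 at week 14, 0 to 1 and 0 to 1 at E20, 6 to 9 and 8 to 11 in SHRSP, 8 to 9 and 12 to 15 in F344, and 0 to 2 and 0 to 0 in the interaction. The medians were -0.03 to 0.03, -0.00 to 0.04, -0.01 to 0.02, -0.14 to -0.05 and -0.01 to 0.04.

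Over 59 results of single genes and 2236 values, 2135 kept direction and side of the threshold, 65 lost and 33 gained the call, and 3 reversed. The replicate block ended 2 calls, Psmc1 at week 14 and Psma1 in SHRSP. Of 33 same-numbered pairs of arrays, 13 had a correlation above 0.1 (median 0.03, highest 0.44), and the median for different numbers was -0.02. The numbers were not taken as pairs, and whether some same-numbered arrays are related cannot be told here. Background signal limits the 5 dim genes, and 4 arrays limit SHRSP at E20.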
